A study of Rattus norvegicus with 9 samples.

Results

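The genes described here are those of glycolysis, of lactate formation and export, and the copies of glycolytic enzymes that only germ cells are known to use, in rat Sertoli cell cultures. They were chosen by name: a list of 44 symbols, of which Pkm2 is the older name of Pkm, so that it stands for 43 genes. The array carried a probe for each of them, 51 probes of 41012 in all. A probe counted as measured when, for 1 age or more, the scanner software called it well above background on 2 or 3 arrays, and 41 of the 43 genes passed, among 22453 genes tested. Pklr, the liver and red cell pyruvate kinase, and Pdk4, a kinase that switches off pyruvate dehydrogenase, were not well above background on any of the 9 arrays and were not tested.

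The arrays compared Sertoli cell cultures from testes of rats aged 5, 12 and 60 days, with 3 arrays per age. Every culture, at every age, had been kept for 4 days in a defined growth factor medium and then received oFSH at 50 ng/ml together with testosterone at 1e-07 M, in pulses over 11 hours, so no group was without hormone. The labels give neither the strain nor whether replicates came from separate animals or cultures, and p-values measure only the spread between these samples. Total RNA was labelled with Cy3 and each sample was hybridised to its own 1-colour Agilent 4x44k array.

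Sertoli cells line the seminiferous tubule, where they surround and feed the germ cells. They take up glucose, run glycolysis and pass much of the carbon on as lactate, which pachytene spermatocytes and round spermatids use as a fuel in preference to glucose. Lactate leaves and enters cells through the monocarboxylate carriers of the Slc16a family, which need a single-pass glycoprotein, basigin (Bsg) or embigin (Emb), to reach the cell surface. Germ cells silence the X chromosome at meiosis, and several X-linked enzymes have a second copy on an autosome that is switched on in spermatocytes or spermatids.

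A level below is the log2 signal of a probe minus the 75th percentile of its array, so 0 is the signal that 3 in 4 probes of an array lie under, and a difference of 1 is a doubling. Levels of different probes are not comparable with each other. The 75th percentile was 150 to 437 intensity units, and 49.1% to 63.0% of probes were well above background. The 3 ages of each replicate number shared a slide, and on every slide the ages took the same array positions, so age and position cannot be told apart. A gene was called changed at an adjusted p under 0.05 in limma, with Benjamini-Hochberg adjustment over all genes tested.

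Markers of Sertoli cells and of other cells of the testis were read on the same arrays. Of 23 tested Sertoli cell markers, 19 were well above background on all 3 arrays at 5 days, 20 at 12 days and all 23 at 60 days. Mean levels over 20 spermatocyte markers were -4.32 to -3.99 at 5 days, -1.87 to -1.41 at 12 days and 1.64 to 1.93 at 60 days. Over 25 spermatid markers they were -4.82 to -4.26, -4.47 to -3.81 and -0.79 to -0.46 at the same ages. At 5 days 13 of the 20 spermatocyte markers, among them Sycp1, Sycp3 and Dmc1, stayed at background on every array. So did 16 of the 25 spermatid markers, among them Tnp1, Smcp and Acrv1. At 60 days there was no such gene in either list. However, 4 of the 20 spermatocyte, 18 of the 25 spermatid and 2 of the 23 Sertoli cell markers passed the filter only through the 60-day arrays. These had to be above background at 60 days and mostly not before, so they lend the contrast no weight. A further 2 spermatocyte and 4 spermatid markers were not tested. Peritubular and fibroblast markers were instead highest at 5 days, with mean levels over 14 genes of 4.49 to 5.07 at 5 days, 3.24 to 3.70 at 12 days and 0.34 to 2.33 at 60 days. The part of these cells in the results below was not tested, and fewer cells of a type and less RNA per cell cannot be told apart in such samples.

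**Figure D1:**
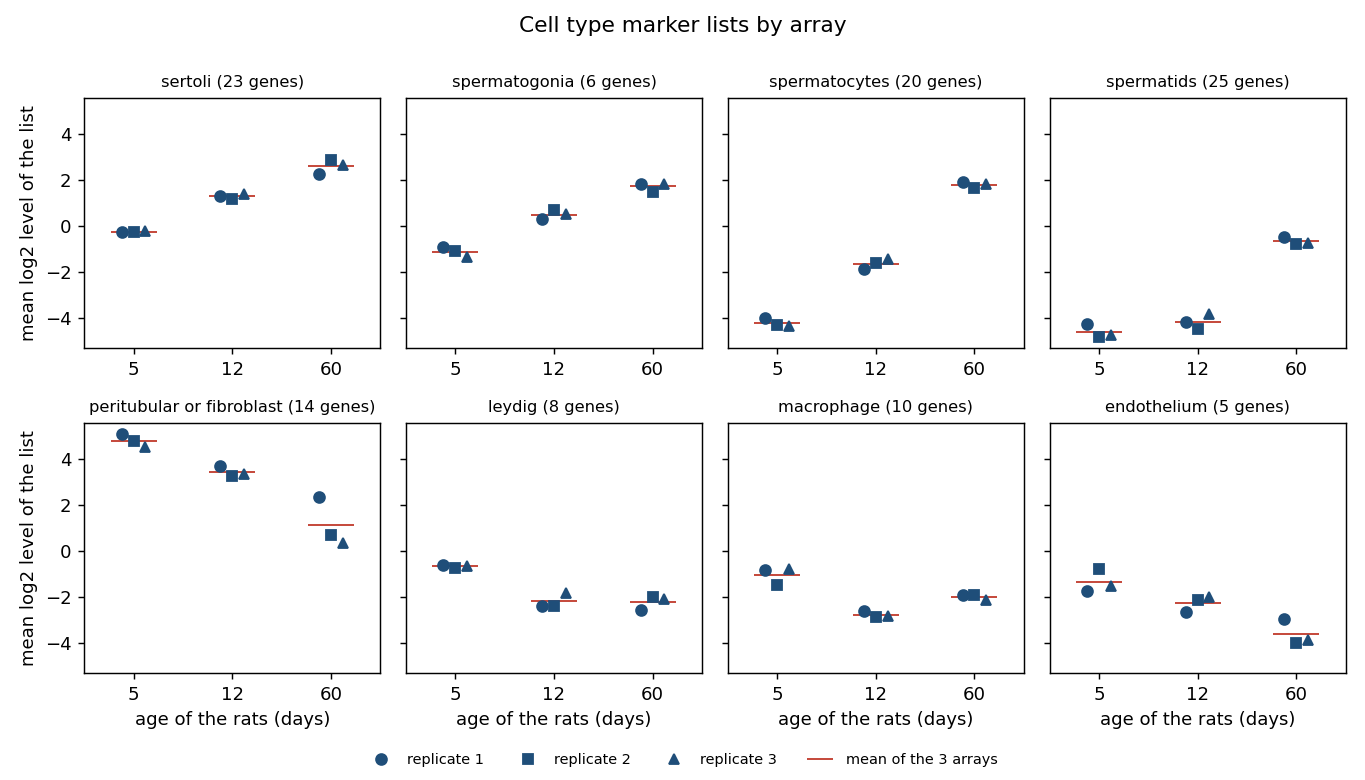
Mean log2 level of each cell type marker list on every array (vertical axis, relative to the array's 75th percentile) against the age of the rats in days (horizontal axis); symbols are the 3 replicates and the red line is their mean. The spermatocyte list sat at 1.64 to 1.93 on the 60-day arrays, above all arrays of the younger ages, and the peritubular or fibroblast list of the first replicate at 60 days (2.33) stood above the other two (0.68 and 0.34). Of the spermatocyte and spermatid lists, 4 of 20 and 18 of 25 genes passed the filter only through the 60-day arrays.

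At 60 days Ldhc, Pdha2, Emb, Pfkl, Ldhb and Pdk3 rose against both younger ages, and Aldoc, Eno2 and Slc16a7 fell against both. Not all of these calls were firm. Against 12 days, those of Ldhb, Slc16a7 and Pdk3 were lost under 16, 12 and 10 of 25 alternatives. The result for Pdha2 rests on 1 probe, and a second probe was not called. In the 60-day against 12-day comparison 12 of the 41 tested genes rose and 4 fell, where 25.5% of all genes were called. Against 5 days the counts at 60 days were again 12 and 4, with 35.4% of all genes called. Between 12 and 5 days 4 genes rose (Pfkfb3, Gpd1, Ldhc and Pdha2) and 1 fell (Aldoc), with 12.5% of all genes called. The share of these genes called, 39.0%, was above the background in the first comparison and near it at 60 against 5 days (39.0%) and at 12 against 5 days (12.2%). The counts hold Pgk2, Gapdhs and Pgam2, which passed the filter only through the 60-day arrays, and Pfkfb3, which passed only through the 12-day arrays, so these had to differ and lend the counts no weight. By direction the background was 6.19% higher and 6.35% lower at 12 against 5 days, 12.3% and 13.1% at 60 against 12 days, and 17.4% and 18.1% at 60 against 5 days. The arrays of both ages did not overlap for 23 of the 41 genes at 60 against 12 days (40.9% of all genes), 16 at 12 against 5 days (28.7%) and 19 at 60 against 5 days (47.5%).

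The median difference of the 41 genes was 0.53 at 60 against 12 days, -0.02 at 12 against 5 days and 0.51 at 60 against 5 days. The medians of all genes tested were -0.16, 0.05 and -0.09. In 20 of the 41 genes the means changed over the 3 ages by limma's F-test, with 36.8% of all genes called. Of the 41 genes, 20 passed no pairwise test. The medians and the F-test also took in Pgk2, Gapdhs, Pgam2 and Pfkfb3, which had to differ and lend them no weight. A stricter filter, asking for signal above background on each of the 9 arrays, removed these and some other members. The 60-day medians were then -0.018 against 12 days and -0.0048 against 5 days (all genes -0.25 and -0.18). The F-test called 10 members. With the slide as a block, which the check of the replicate numbers allows, the calls at 12 against 5 days became 9 (5 rises and 4 falls) with 17.8% of all genes called. It gave 18 at 60 against 12 days (34.4% of all genes) and 22 at 60 against 5 days (44.5%). Scaled on the spike-in probes instead, all genes shifted by a median of -1.27 at 12 against 5 days and of 0.80 at 60 against 12 days. The calls among the members then split into 1 rise and 3 falls at 12 against 5 days, and 10 rises and 0 falls at 60 against 12 days. Lost on that scale were the calls of Ldhc and Gpd1 at 12 against 5 days, of Aldoc, Eno2 and Slc16a7 at 60 against 12 days, of Pfkl, Pfkfb2 and Gapdhs at 60 against 5 days, and all those of Pfkm, Pfkfb3, Ldhb, Pdk3, Slc16a1 and Slc16a3. Without the filter on dim probes Pfkm at 60 against 5 days and Ldhb, Slc16a7 and Gapdhs at 60 against 12 days lost their calls. A fit of only the 6 arrays of both ages lost those of Pfkm, Ldhb, Gapdhs and Slc16a3, and limma with a trended, robust prior lost that of Gapdhs.

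**Figure D2:**
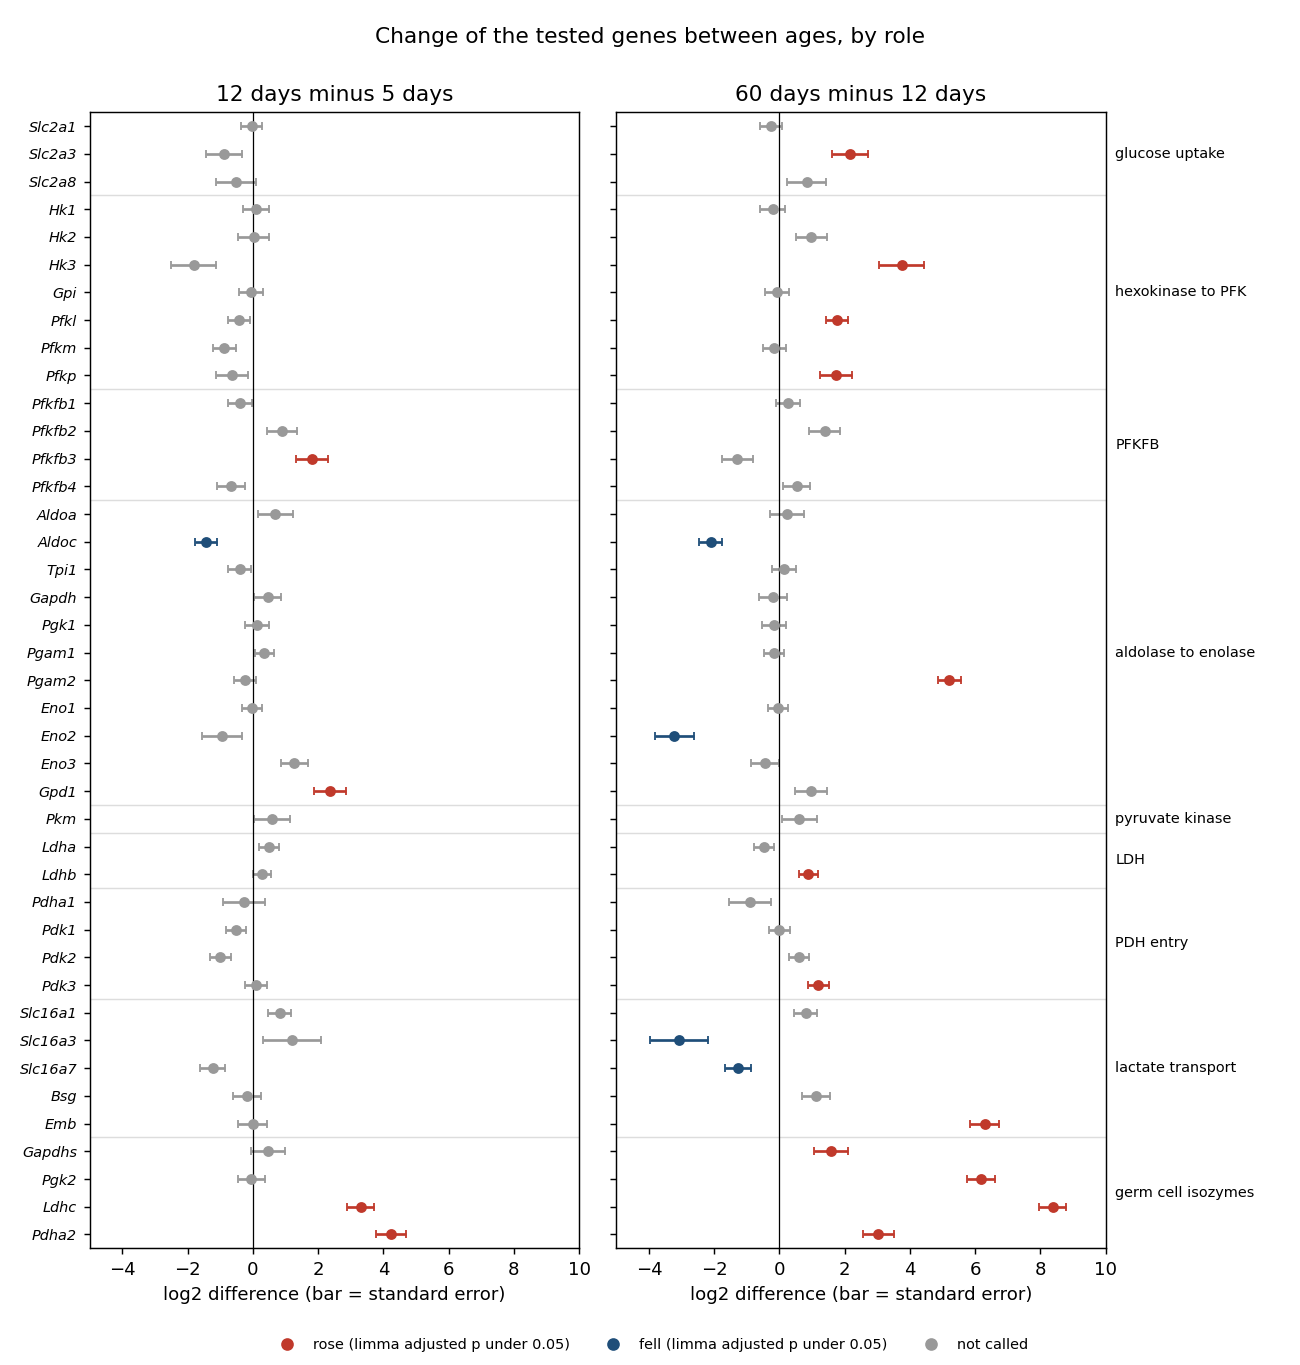
Log2 difference of each of the 41 tested genes at 12 against 5 days (left) and at 60 against 12 days (right), grouped by role; bars are limma's standard errors and colours show the call. At 60 against 12 days all 4 germ cell isozymes lie to the right of 0, and the longest shift is that of Ldhc (8.38). Pgk2 and Gapdhs among them passed the filter only through the 60-day arrays.

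Of the germ cell isozymes, Ldhc and Pdha2 rose at 12 against 5 days and again at 60 against 12 days. Pgk2 and Gapdhs were called higher at 60 days against both younger ages, but passed the filter only through the 60-day arrays, so their calls are given as a description. None of their somatic counterparts, Ldha, Pgk1, Pdha1 and Gapdh, was called in any comparison. In the fit with the slide as a block Pdha1 fell at 60 against 5 days (adjusted p = 0.0318). Pgk1 and Pdha1 lie on the X, and their germ cell copies Pgk2 and Pdha2 on chromosomes 9 and 2. Ldhc and Ldha are neighbours on chromosome 1, where Gapdhs also lies, with Gapdh on chromosome 4.

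The 60-base probes are given here 5′ to 3′ as the array files list them. They were compared only with each other, and whether a probe also reads the transcript of its relative was not tested. Pgk2 and Pgk1 were read in the same stretch of the transcript. Their probes overlap by 29 bases, of which 22 match and 7 differ, and capitals mark the matching bases of that overlap.
Pgk2 probe: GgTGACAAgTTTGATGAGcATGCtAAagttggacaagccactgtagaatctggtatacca
Pgk1 probe: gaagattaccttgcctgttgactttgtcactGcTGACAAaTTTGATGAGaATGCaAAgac
The longest run of letters that both share is 9 bases. The probes of the other pairs had longest shared runs of 4 bases (Ldhc and Ldha), 5 bases (Pdha2 and Pdha1) and 6 bases (Gapdhs and Gapdh). Probes placed at different sites share only short runs in any case, so these runs do not show that a copy was told from its relative.
Ldhc probe: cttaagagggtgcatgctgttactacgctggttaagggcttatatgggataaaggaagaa
Ldha probe: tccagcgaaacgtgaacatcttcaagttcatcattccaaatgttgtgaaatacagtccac
Pdha2 probe: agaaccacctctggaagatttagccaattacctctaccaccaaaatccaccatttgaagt
Gapdhs probe: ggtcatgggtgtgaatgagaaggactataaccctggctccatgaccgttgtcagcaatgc
On rn4, the build named in the files of slides 2 and 3, the Pgk2 probe is at chr9:16706657-16706716 and the Pgk1 probe at chrX:94336783-94336842. The Ldhc probe spans chr1:97433896-97435065 and the Gapdhs probe chr1:85776462-85776874, both stretches longer than 60 bases. The Ldha probe is at chr1:97407674-97407733 and the Pdha2 probe at chr2:238983479-238983538. The files do not say which exon or untranslated part a probe reads.

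Ldhc encodes the lactate dehydrogenase of spermatocytes, spermatids and sperm. Its level was -5.89, -5.91 and -6.25 on the 5-day arrays, -2.65, -2.62 and -2.84 on the 12-day arrays and 6.49, 4.81 and 5.73 on the 60-day arrays. The 3 ages formed 3 separate steps with no overlap. At 5 days the probe was not well above background on any array, so against that age only bounds can be given: at least 832-fold higher at 60 days (adjusted p = 1.33e-07) and at least 2.49-fold higher at 12 days (adjusted p = 0.000514). These bounds set the bright age against, on each array, the higher of the dim probe's own signal and the lowest signal among probes well above background, averaged over the 3 arrays. At 60 against 12 days, where both ages were measured, it was 334-fold higher, a log2 difference of 8.38 ± 0.41 (SE, n = 3 arrays per age, adjusted p = 2.58e-06). On the spike-in scale the 12-day rise was 1.99 and was not called (adjusted p = 0.122).

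Ldha, the lactate dehydrogenase subunit that favours lactate formation, was at 3.82, 3.69 and 4.02 at 5 days, 4.58, 4.09 and 4.34 at 12 days and 3.81, 3.87 and 3.90 at 60 days. The 12-day arrays were the highest of the 9, by a margin that did not pass the test (0.49 ± 0.29 at 12 against 5 days, adjusted p = 0.367; -0.48 ± 0.29 at 60 against 12 days, adjusted p = 0.276). At 60 against 5 days the difference was 0.02 ± 0.29.

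Pgk2 encodes the phosphoglycerate kinase of late spermatogenesis, an intronless copy of the X-linked Pgk1. It was not well above background on any 5-day or 12-day array, at levels of -6.06, -6.0 and -6.24 and of -6.32, -6.54 and -5.60. On the 60-day arrays it was at 0.57, -0.81 and 0.32. That put it at least 16.7-fold higher at 60 than at 12 days (adjusted p = 6.17e-06) and at least 16.5-fold higher than at 5 days (adjusted p = 2.07e-06). Pgk1 was at 3.77, 3.73 and 4.25 at 5 days, 3.71, 4.02 and 4.43 at 12 days and 3.38, 3.93 and 4.37 at 60 days, with no comparison beyond 0.17 in size.

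Pdha2, the autosomal copy of the E1 alpha subunit of pyruvate dehydrogenase, was the other gene already higher at 12 days. Its brighter probe gave -3.85, -5.39 and -4.45 at 5 days (well above background on 1 of 3 arrays), -1.06, -0.05 and 0.11 at 12 days, and 3.07, 2.5 and 2.53 at 60 days. The differences were 4.23 ± 0.46 at 12 against 5 days (adjusted p = 0.000246) and 3.03 ± 0.46 at 60 against 12 days (adjusted p = 0.000724).

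A second probe of Pdha2 did not show this.
Pdha2 second probe: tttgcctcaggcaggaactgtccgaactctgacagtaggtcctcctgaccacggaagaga
It read -1.77, -1.92 and -1.93 at 5 days, -1.55, -1.50 and -0.77 at 12 days and -2.37, -0.82 and -0.58 at 60 days, and was not called in any comparison (0.60, 0.02 and 0.62, adjusted p = 0.516, 0.984 and 0.343). The 2 probes start 1822 bases apart on rn4, at chr2:238985301-238985360 for the second, while the gene spans 1549 bases in RefSeq on GRCr8. The result for Pdha2 therefore rests on 1 probe.

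Pdha1, the X-linked E1 alpha subunit, was at 3.94, 2.65 and 1.45 at 5 days, 2.79, 2.34 and 2.10 at 12 days and 2.65, 0.98 and 0.91 at 60 days. The mean at 60 days was lower than at 5 days by 1.16 ± 0.64 on the log2 scale, and the ages overlapped (d60 minus d5 of -1.16, adjusted p = 0.187). Within slides the 60-day minus 5-day difference was -1.29, -1.67 and -0.54, and without replicate 3 at 5 days it passed (adjusted p = 0.0458).

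Gapdhs encodes the sperm form of glyceraldehyde-3-phosphate dehydrogenase, which is bound to the fibrous sheath of the tail. Its levels were -4.01, -4.81 and -4.77 at 5 days, none well above background, -3.52, -5.35 and -3.32 at 12 days, 1 of 3 well above, and -2.77, -2.41 and -2.26 at 60 days. It was at least 2.87-fold higher at 60 than at 5 days (adjusted p = 0.00951), and 1.58 ± 0.52 higher on the log2 scale at 60 than at 12 days (adjusted p = 0.0448). The second call was lost without any 1 of 7 arrays (all but replicate 1 and 3 at 12 days; adjusted p = 0.0512 to 0.122) and without any 1 slide, and on the log2 scale normexp background correction turned its sign (-0.051). The first was lost without slide 3 (adjusted p = 0.0682). Gapdh was at 5.21, 5.44 and 6.24 at 5 days, 5.81, 5.59 and 6.84 at 12 days and 5.70, 5.75 and 6.21 at 60 days, and replicate 3 was the highest of its age each time.

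**Figure D3:**
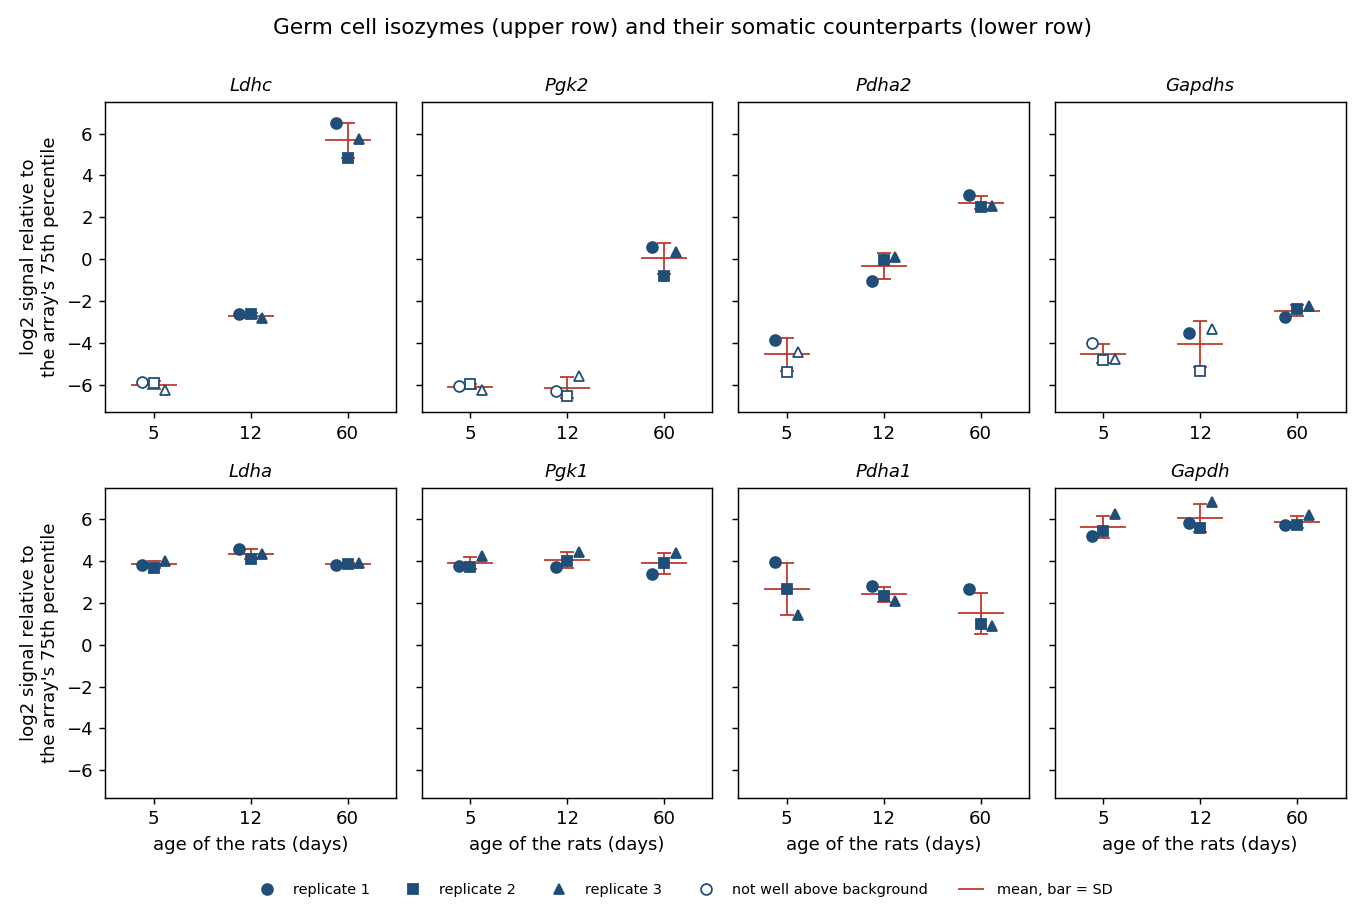
Log2 level of each germ cell isozyme (upper row) and of its somatic counterpart (lower row) on every array, against the age of the rats in days; symbols are replicates, open symbols were not well above background, and red bars give the mean and SD. Ldhc climbs in 2 steps, Pgk2 is dim until 60 days (0.57, -0.81 and 0.32), and no gene of the lower row was called.

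The promoter windows of the 4 germ cell isozymes and of Ldha are given from RefSeq (GRCr8, 250 bases before to 50 after the annotated start). They were picked with the 60-day values known. Pgk2 and Gapdhs passed the filter only through the 60-day arrays, so their higher 60-day levels are no ground for this choice. Capitals mark matches, on either strand, to the motifs searched: the cAMP response element TGACGTCA, its first 6 bases TGACGT (which the full element contains), the E-box CACGTG and the GC box GGGCGG. Of 33469 windows of this length, 1.83% hold TGACGTCA, 7.94% TGACGT, 6.42% CACGTG and 33.1% GGGCGG.
Ldhc promoter: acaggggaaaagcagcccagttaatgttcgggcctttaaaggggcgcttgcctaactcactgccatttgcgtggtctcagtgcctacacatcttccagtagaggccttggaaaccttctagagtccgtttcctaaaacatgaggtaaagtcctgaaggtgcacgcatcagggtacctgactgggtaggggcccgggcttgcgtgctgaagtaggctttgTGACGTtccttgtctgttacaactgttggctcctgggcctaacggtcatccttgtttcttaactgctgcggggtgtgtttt
Pgk2 promoter: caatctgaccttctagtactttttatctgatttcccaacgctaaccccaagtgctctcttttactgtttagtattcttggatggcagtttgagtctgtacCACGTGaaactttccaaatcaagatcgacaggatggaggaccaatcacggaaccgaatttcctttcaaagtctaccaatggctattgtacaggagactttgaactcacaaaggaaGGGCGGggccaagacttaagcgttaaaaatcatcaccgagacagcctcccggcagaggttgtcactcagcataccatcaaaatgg
Gapdhs promoter: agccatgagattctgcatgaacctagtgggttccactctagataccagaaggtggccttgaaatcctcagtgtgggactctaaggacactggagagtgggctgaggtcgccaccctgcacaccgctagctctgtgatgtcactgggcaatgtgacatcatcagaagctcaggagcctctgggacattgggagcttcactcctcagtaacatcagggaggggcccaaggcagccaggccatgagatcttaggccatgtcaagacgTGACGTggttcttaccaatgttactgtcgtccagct
Pdha2 promoter: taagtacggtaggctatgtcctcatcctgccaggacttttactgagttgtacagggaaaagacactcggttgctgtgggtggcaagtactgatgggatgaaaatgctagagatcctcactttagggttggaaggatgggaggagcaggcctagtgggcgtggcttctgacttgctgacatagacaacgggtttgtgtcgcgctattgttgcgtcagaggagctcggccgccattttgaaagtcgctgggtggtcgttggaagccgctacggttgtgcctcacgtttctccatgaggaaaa
Ldha promoter: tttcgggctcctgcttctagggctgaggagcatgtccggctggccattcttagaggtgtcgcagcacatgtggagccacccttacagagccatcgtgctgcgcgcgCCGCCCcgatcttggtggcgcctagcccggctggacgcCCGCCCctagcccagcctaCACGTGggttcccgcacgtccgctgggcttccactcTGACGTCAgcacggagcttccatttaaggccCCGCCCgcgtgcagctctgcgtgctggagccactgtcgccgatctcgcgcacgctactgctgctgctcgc
They lie at chr1:106522745-106523044 (Ldhc, plus strand), chr9:27976663-27976962 (Pgk2, plus strand), chr1:95121006-95121305 (Gapdhs, minus strand), chr2:232547049-232547348 (Pdha2, minus strand) and chr1:106507842-106508141 (Ldha, plus strand). Ldhc and Gapdhs hold TGACGT, Pgk2 holds CACGTG and GGGCGG, and the Pdha2 window holds none of the 4 motifs. Ldha holds the full cAMP response element, the only member with it, and also CACGTG and GGGCGG. Of the 40 genes with a window, 5 hold TGACGT, 6 CACGTG and 24 GGGCGG. The germ cell isozymes had 5 to 14 CpG dinucleotides per window. The other 36 genes, each counted by its window with the most CpG, had 2 to 39 with a median of 19.5. The median over all windows, without such a choice, was 7.

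Glucose enters Sertoli cells mainly through Slc2a1 (GLUT1), with Slc2a3 (GLUT3) and Slc2a8 (GLUT8) as further carriers. Slc2a3 rose at 60 against 12 days, and the other 2 were not called at any age. Slc2a3 levels were -3.27, -3.75 and -2.67 at 5 days, -3.41, -5.47 and -3.47 at 12 days and -1.48, -2.19 and -2.23 at 60 days. At 12 days 1 of 3 arrays was well above background, so differences from that age rest on values near background. The 60-day arrays lay above all others. The difference at 60 against 12 days was 2.15 ± 0.55 (adjusted p = 0.0153), and it fell short without replicate 1 at 60 days (adjusted p = 0.0518) and without slide 1 or 2 (0.0755 and 0.0826). Against 5 days it was 1.26 ± 0.55 (adjusted p = 0.103), and it passed with the slide as a block (0.0343) or without replicate 2 at 12 days (0.0285). Slc2a1 was at 2.63, 2.81 and 2.35 at 5 days, 2.61, 2.90 and 2.16 at 12 days and 2.05, 2.63 and 2.20 at 60 days, and no difference exceeded 0.31 in size. Slc2a8 spread over -1.76 to 0.97 within the 5-day arrays alone.

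Hexokinases add the first phosphate to glucose. Hk3, the form of myeloid cells, rose at 60 against 12 days while Hk1 and Hk2 were not called. Hk3 levels were -3.60, -5.11 and -2.81 at 5 days (2 of 3 arrays well above background), -5.30, -6.54 and -5.14 at 12 days (none) and -0.62, -2.33 and -2.79 at 60 days (all 3). It was at least 4.35-fold higher at 60 than at 12 days (log2 difference 3.75 ± 0.70, adjusted p = 0.00246). The 12-day level was 1.82 ± 0.70 below the 5-day level (12 minus 5 days of -1.82, adjusted p = 0.132, and 0.0437 with the slide as a block). At 60 against 5 days the difference was 1.93 ± 0.70 (adjusted p = 0.0525), and it passed with the block (0.0158) or without replicate 2 at 12 days (0.0475), or without replicate 3 at 5 days or at 60 days (0.0266 and 0.0355). The list of 10 macrophage markers was also lowest at 12 days, with mean levels of -1.50 to -0.81 at 5 days, -2.87 to -2.64 at 12 days and -2.13 to -1.91 at 60 days, 7 of the 10 falling at 12 against 5 days and 4 rising at 60 against 12 days. At 60 against 5 days, where Hk3 was higher without passing the test, 6 of these markers fell and 1 rose (median -1.28). Of all genes 12.5% were called at 12 against 5 days, 25.5% at 60 against 12 days and 35.4% at 60 against 5 days. The part of those cells in the Hk3 values was not tested.

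Hk1, the ubiquitous hexokinase, had a bright probe at 4.79, 4.37 and 3.83 at 5 days, 4.13, 4.56 and 4.59 at 12 days and 4.90, 3.82 and 3.92 at 60 days. A dimmer second probe, at -3.00, -1.02 and -1.10, then -1.71, -1.12 and -0.64, then -0.32, 0.31 and -0.50 at the same ages, rose by 1.54 at 60 against 5 days (adjusted p = 0.0478). The Hk1 gene has alternative first exons, one of them used in spermatogenic cells, and the files give no rn4 position for either probe. Hk2, the insulin-responsive form, spread over -4.04 to -3.03 at 5 days, -3.77 to -3.10 at 12 days and -3.57 to -1.86 at 60 days. It was called at 60 against 12 days (adjusted p = 0.0257) and against 5 days (adjusted p = 0.0169) only when replicate 1 at 60 days was left out. Gpi, which turns glucose 6-phosphate into fructose 6-phosphate, was not called, with differences of at most 0.14 in size.

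Phosphofructokinase commits sugar to glycolysis, and its 3 subunit genes parted. Pfkl, the liver subunit, rose at 60 days, with levels of -1.72, -1.72 and -1.01 at 5 days, -2.09, -2.23 and -1.41 at 12 days and -0.22, -0.07 and -0.14 at 60 days. The 60-day arrays lay close together and above all others. The difference was 1.77 ± 0.35 at 60 against 12 days (adjusted p = 0.00356, and 0.0863 without slide 2) and 1.34 ± 0.35 against 5 days (adjusted p = 0.0115). The second was lost without replicate 2 at 5 days (adjusted p = 0.0506), without slide 1 or 2 (0.0833 and 0.146), and on the spike-in scale.

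Pfkp, the platelet subunit, gave 3.19, 2.23 and 2.11 at 5 days, 2.52, 1.58 and 1.47 at 12 days and 4.46, 3.28 and 3.03 at 60 days. On each slide the order of the ages was the same, and replicate 1 was the highest at every age. It rose by 1.73 ± 0.48 at 60 against 12 days (adjusted p = 0.0230), with differences of 1.93, 1.70 and 1.56 on the 3 slides. The call was lost without replicate 1 at 60 days or replicate 2 or 3 at 12 days (adjusted p = 0.0700 to 0.0792) and without slide 2 or 3. At 60 against 5 days it was 1.08 ± 0.48 higher (adjusted p = 0.110, and 0.00851 with the slide as a block).

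Pfkm, the muscle subunit, went the other way. It was at 3.58, 3.37 and 3.45 at 5 days, 2.30, 2.52 and 2.93 at 12 days and 2.84, 1.82 and 2.63 at 60 days, so the 5-day arrays were the highest. It fell by 1.04 ± 0.35 at 60 against 5 days (log2 difference -1.04, adjusted p = 0.0423), a call lost without any 1 of 7 arrays (all but replicate 1 at 60 days and replicate 3 at 12 days; adjusted p = 0.0529 to 0.171), without any 1 slide (0.0800 to 0.301) and under quantile normalization.

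The Pfkfb genes encode the enzymes that make and break fructose 2,6-bisphosphate, the activator of phosphofructokinase. Pfkfb2 rose at 60 against 5 days and Pfkfb3 at 12 against 5 days, and Pfkfb1 and Pfkfb4 were not called. Pfkfb2, the heart form, was at -3.38, -4.39 and -3.08 at 5 days, -3.08, -2.89 and -2.21 at 12 days and -2.0, -1.36 and -0.67 at 60 days. The 3 ages did not overlap. The difference at 60 against 5 days was 2.27 ± 0.46 (adjusted p = 0.00283, and 0.0558 without slide 2), and at 60 against 12 days 1.38 ± 0.46 (adjusted p = 0.0509). That difference passed with the slide as a block (0.0134) or without replicate 1 at 60 days (0.0285), replicate 2 at 5 days (0.0416) or replicate 3 at 12 days (0.0475). A dimmer second probe gave 1.51 at 60 against 5 days and was not called (adjusted p = 0.207).

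Pfkfb3, the inducible form with strong kinase activity, was near the detection limit: 0 of the 5-day, 2 of the 12-day and 1 of the 60-day arrays read it well above background. Its levels were -6.14, -6.31 and -5.02, then -3.88, -3.91 and -4.24, then -6.0, -4.40 and -5.53. It was at least 1.01-fold higher at 12 than at 5 days (log2 difference 1.81 ± 0.48, adjusted p = 0.0301), a call lost without any 1 of 5 arrays (replicate 1 or 2 at 5 days, or any at 12 days; adjusted p = 0.0584 to 0.117) and without slide 1 or 2.

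Between aldolase and enolase Pgam2 rose and Aldoc and Eno2 fell at 60 days against both younger ages, and Gpd1 rose at 12 and at 60 against 5 days. Aldoa, Tpi1, Gapdh, Pgk1, Pgam1, Eno1 and Eno3 passed no test. The 11 genes of this stretch, with Gpd1, were called at a share near that of all genes, 27.3% against 25.5% at 60 against 12 days and 36.4% against 35.4% at 60 against 5 days. Tpi1, triose phosphate isomerase, was at 3.62, 3.99 and 3.64 at 5 days, 3.27, 3.79 and 2.97 at 12 days and 3.02, 3.98 and 3.44 at 60 days. Eno1 was at 6.19, 6.04 and 6.6, then 6.30, 5.94 and 6.52, then 6.21, 6.21 and 6.24, with no difference beyond 0.06 in size. Aldoa varied more, between 2.95 and 4.98 at 5 days alone. Its difference of 0.92 ± 0.53 at 60 against 5 days passed only when replicate 3 at 5 days was left out (adjusted p = 0.0462).

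Pgam1, the ubiquitous phosphoglycerate mutase, is uncertain: its bright probe was saturated on 3 of 9 arrays, and the files place its 2 probes on rn4 chromosomes 10 and 6, whereas RefSeq has the gene on chromosome 1. Signal from a near-identical copy cannot be told apart from it. Its levels were 7.14 to 7.38 at 5 days, 7.46 to 7.83 at 12 days and 7.24 to 7.66 at 60 days.

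Pgam2, the muscle phosphoglycerate mutase, which is also the form of spermatids and sperm, rose at 60 days against both younger ages. Levels were -4.43, -3.62 and -4.41 at 5 days, -4.63, -4.53 and -4.05 at 12 days and 0.65, 0.92 and 0.85 at 60 days. The 60-day arrays lay close together and above all others. It was at least 28.6-fold higher at 60 than at 12 days (log2 difference 5.21 ± 0.34, adjusted p = 5.30e-06), and was also called higher than at 5 days (adjusted p = 2.16e-06). At 5 days 1 of 3 arrays was well above background, so the log2 difference of 4.96 ± 0.34 rests on values near background. Pgam2 passed the filter only through the 60-day arrays.

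Aldoc and Eno2, the brain forms of aldolase and enolase, fell. Aldoc was at 0.66, 0.90 and 0.83 at 5 days, -0.48, -0.54 and -0.91 at 12 days and -2.35, -2.49 and -3.39 at 60 days, in 3 steps without overlap. It fell by 2.10 ± 0.35 on the log2 scale at 60 against 12 days (adjusted p = 0.00128), by 3.54 ± 0.35 at 60 against 5 days (adjusted p = 2.06e-05) and by 1.44 ± 0.35 at 12 against 5 days (adjusted p = 0.0216). The last was lost without replicate 1 or 3 at 12 days or replicate 2 or 3 at 5 days (adjusted p = 0.0530 to 0.0806), and without any 1 slide.

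Eno2 was at 2.54, 2.21 and 3.50 at 5 days, 1.75, 1.09 and 2.56 at 12 days and -0.22, -2.48 and -1.57 at 60 days. It fell by 3.23 ± 0.60 on the log2 scale at 60 against 12 days (adjusted p = 0.00251, and 0.0637 on the spike-in scale) and by 4.18 ± 0.60 at 60 against 5 days (adjusted p = 0.000275). Among the 60-day arrays the first replicate was the highest for Eno2, as it was for the peritubular and fibroblast markers (mean levels 2.33, 0.68 and 0.34). The part of those cells in the Eno2 values was not tested.

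Eno3, the muscle enolase, was at 1.69, 0.69 and 0.39 at 5 days, 2.22, 2.09 and 2.27 at 12 days and 2.39, 1.27 and 1.60 at 60 days. It was 1.27 ± 0.42 higher at 12 than at 5 days without passing the test (adjusted p = 0.0795), and passed with the slide as a block (0.0262) or without replicate 1 at 5 days (0.0317). Gpd1, the cytosolic glycerol 3-phosphate dehydrogenase that draws dihydroxyacetone phosphate off the pathway, was not well above background on any 5-day array and was so on all 12-day and 60-day arrays. Levels were -4.24, -5.14 and -4.82, then -2.18, -2.46 and -2.47, then -2.44, -0.30 and -1.50. It was at least 3.13-fold higher at 12 than at 5 days (adjusted p = 0.0103) and at least 6.10-fold higher at 60 than at 5 days (adjusted p = 0.000367). The first was lost without slide 2 or 3 (adjusted p = 0.0624 and 0.0995) and on the spike-in scale.

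Pyruvate leaves glycolysis through pyruvate kinase and becomes lactate or acetyl-CoA. Pkm, whose M1 and M2 splice forms were not told apart here, was at 2.78, 3.21 and 4.60 at 5 days, 4.15, 3.34 and 4.86 at 12 days and 4.18, 4.81 and 5.20 at 60 days. The ages overlapped, and the difference of 1.2 ± 0.54 at 60 against 5 days was not called (adjusted p = 0.113, and 0.0231 with the slide as a block). The 5-day array of replicate 3 was the one high array of its age, and without it the adjusted p was 0.0244.

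Ldhb, the subunit that favours lactate oxidation, was at 6.23, 5.89 and 5.92 at 5 days, 6.42, 6.30 and 6.15 at 12 days and 7.16, 7.26 and 7.12 at 60 days. The 60-day arrays were above all others, and 1 of them was saturated. Ldhb rose by 1.17 ± 0.29 at 60 against 5 days (adjusted p = 0.00860; 0.146 and 0.0671 without slide 2 or 3) and by 0.89 ± 0.29 at 60 against 12 days (adjusted p = 0.0438). The second call was lost without any 1 of 8 arrays (all but replicate 1 at 5 days; adjusted p = 0.0582 to 0.123) and without any 1 slide. Its partner Ldha, described above, was not called.

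The pyruvate dehydrogenase kinases hold back the entry of pyruvate into the citric acid cycle. Of the 3 tested, Pdk3 rose at 60 days, and Pdk1 and Pdk2 were not called. Pdk3 was at 1.00, 1.30 and 1.06 at 5 days, 1.01, 1.60 and 1.00 at 12 days and 1.99, 2.45 and 2.76 at 60 days. The differences were 1.2 ± 0.34 at 60 against 12 days (adjusted p = 0.0233) and 1.28 ± 0.34 at 60 against 5 days (adjusted p = 0.0120). The first was lost without replicate 1 or 3 at 12 days or replicate 2 or 3 at 60 days (adjusted p = 0.0726 to 0.0921) and without any 1 slide, and the second without replicate 3 at 60 days (0.0541) or slide 2 or 3 (0.0892 and 0.108). A dimmer probe of Pdk3 gave 1.35 at 60 against 12 days (adjusted p = 0.0921). Pdk2 was at 0.63, 1.03 and 0.99 at 5 days, -0.33, -0.06 and 0.06 at 12 days and 0.77, 0.49 and 0.22 at 60 days, and the 12-day arrays were the lowest (12 minus 5 days of -0.99 ± 0.31, adjusted p = 0.0632, and 0.0470 with the block).

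Of the lactate carriers, Slc16a1 rose only at 60 against 5 days and Slc16a3 fell only at 60 against 12 days. Slc16a7 fell, and the chaperone Emb rose, at 60 days against both younger ages. Slc16a1 (MCT1), a carrier of wide distribution, was at 0.42, 1.07 and 0.82 at 5 days, 1.11, 2.12 and 1.54 at 12 days and 2.22, 2.35 and 2.61 at 60 days, in 3 steps without overlap. It rose by 1.63 ± 0.36 at 60 against 5 days (adjusted p = 0.00422, and 0.0505 without slide 3). Its differences of 0.82 ± 0.36 at 12 against 5 days and 0.81 ± 0.36 at 60 against 12 days did not pass (adjusted p = 0.187 and 0.126). On the spike-in scale the 60-day against 5-day difference was 1.27 (adjusted p = 0.380).

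Slc16a3 (MCT4), a low-affinity carrier of cells that export lactate, was at 0.83, 0.70 and -0.13 at 5 days, 1.58, 1.86 and 1.55 at 12 days and 1.14, -1.95 and -3.46 at 60 days. The 60-day arrays were spread widely, and the first of them lay within the range of the younger ages. It fell by 3.08 ± 0.90 on the log2 scale at 60 against 12 days (adjusted p = 0.0273), and the fall was 0.44 on the first slide (60 minus 12 days of -0.44), against -3.81 and -5.0 on the other two. The call was lost without any 1 of 5 arrays (any at 12 days, or replicate 2 or 3 at 60 days; adjusted p = 0.0634 to 0.0925) and without slide 2 or 3. At 60 against 5 days the difference was -1.89 ± 0.90 (adjusted p = 0.129), and it passed without replicate 1 at 60 days (0.000799). The same array was the highest of its age in the peritubular and fibroblast markers (mean levels 2.33, 0.68 and 0.34). The part of those cells in the Slc16a3 values was not tested.

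Slc16a7 (MCT2), a high-affinity carrier, was at 0.28, 0.63 and -0.57 at 5 days, -1.08, -0.68 and -1.59 at 12 days and -2.32, -2.47 and -2.36 at 60 days, without overlap between ages. It fell by 2.5 ± 0.39 on the log2 scale at 60 against 5 days (adjusted p = 0.000451) and by 1.27 ± 0.39 at 60 against 12 days (adjusted p = 0.0341). The second was lost without any 1 of 5 arrays (replicate 1 or 2 at 12 days, or any at 60 days; adjusted p = 0.0614 to 0.113), without slide 1 or 2 (up to 0.251), without the filter on dim probes, under median scaling and on the spike-in scale. At 12 against 5 days the difference was -1.23 ± 0.39 (adjusted p = 0.0652, 0.0262 with the slide as a block and 0.0294 without replicate 3 at 5 days).

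Emb, the chaperone that is known to partner MCT2, was at -1.48, -2.08 and -1.35 at 5 days, -2.14, -2.01 and -0.78 at 12 days and 4.31, 4.40 and 5.27 at 60 days. Both younger ages overlapped (a difference of 0.00 ± 0.45) and the 60-day arrays stood apart. At 60 days it was 78.7-fold higher than at 12 days (log2 difference 6.30 ± 0.45, adjusted p = 7.48e-06) and 78.7-fold higher than at 5 days (6.30 ± 0.45, adjusted p = 2.45e-06). Its change after 12 days exceeded that before (6.30 ± 0.78, adjusted p = 0.000692), as did that of Pfkl (2.20 ± 0.60, adjusted p = 0.0405), both measured on all 9 arrays. The interval after 12 days was much longer than that before, and the 12-day arrays enter both changes, so this gives no rate of change. In all 7 genes were called in this comparison of intervals, with 11.2% of all genes called, and the values of Ldhc, Pgk2, Pgam2, Hk3 and Pfkfb3 in it rest on an age at background and are not given. Slc16a7, whose product Emb is known to partner, fell at 60 against 12 days, but that call was lost under 12 of 25 alternatives. Whether the changes of Emb and Slc16a7 occurred in the same cells was not tested.

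Bsg, the chaperone of MCT1 and MCT4, was at 5.08, 5.45 and 6.19 at 5 days, 4.88, 5.28 and 6.0 at 12 days and 6.14, 6.43 and 6.96 at 60 days. On each slide the 60-day array was the highest, by 1.26, 1.15 and 0.96 over 12 days. The difference of 1.12 ± 0.42 at 60 against 12 days was not called (adjusted p = 0.0771, 0.00941 with the slide as a block and 0.0451 without replicate 3 at 12 days), nor was that of 0.93 ± 0.42 against 5 days (0.112, and 0.0164 with the block).

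**Figure D4:**
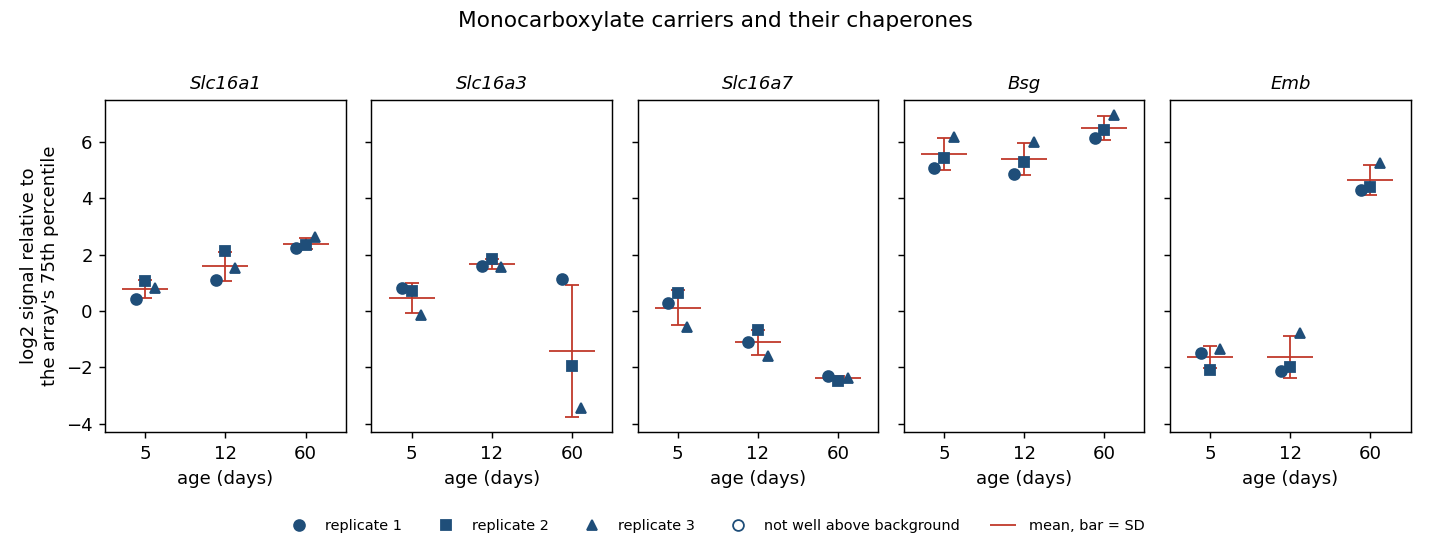
Log2 level of the 3 monocarboxylate carriers and of the chaperones Bsg and Emb on every array, against the age of the rats in days; symbols are replicates and red bars give the mean and SD. Emb lies at 4.31 to 5.27 at 60 days, far above both younger ages, and the 60-day values of Slc16a3 spread from -3.46 to 1.14.

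Genes around these were read from lists of the same pathways. Of 9 tested genes of sperm glycolysis and the fibrous sheath, 8 rose and 0 fell at 60 against 12 days, and 7 rose and 0 fell at 60 against 5 days, with 25.5% and 35.4% of all genes called. Of these 9, 6 (Eno4, Ldhal6b, Gk2, Akap4, Crisp2 and Ropn1) passed the filter only through the 60-day arrays and had to differ, so the counts lend no weight. Ldhal6b, a further lactate dehydrogenase of the testis, was at 2.88, 0.83 and 1.63 at 60 days and not well above background before, which made it at least 56.1-fold higher than at 12 days (adjusted p = 6.76e-06). Gk2, the testis glycerol kinase, was likewise at least 23.9-fold higher at 60 than at 12 days (adjusted p = 5.30e-06), and Crisp2, a secretory protein of the acrosome and tail, at least 80.0-fold higher (adjusted p = 1.02e-05). Slc2a5, the fructose carrier (GLUT5), is on the same list and fell at 12 against 5 days by 3.21 ± 0.44 on the log2 scale (adjusted p = 0.000865), at -3.38, -3.26 and -2.44 at 12 days, against -0.07, 0.36 and 0.25 at 5 days.

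Of 21 further genes of glycolysis, gluconeogenesis and hexose use, 5 rose and 4 fell at 60 against 12 days, with 25.5% of all genes called. Fbp1, fructose 1,6-bisphosphatase, which runs the phosphofructokinase step backwards, was at -1.45, -1.74 and -1.80 at 5 days, -2.82, -2.5 and -3.03 at 12 days and 4.13, 2.92 and 3.59 at 60 days, and rose by 6.33 ± 0.37 at 60 against 12 days (adjusted p = 3.72e-06). G6pc3, the ubiquitous glucose 6-phosphatase, rose by 2.20 ± 0.38 (adjusted p = 0.00151), and Pck2, the mitochondrial phosphoenolpyruvate carboxykinase, fell by 2.60 ± 0.67 (adjusted p = 0.0154). Fbp2, the muscle form of the same phosphatase, had risen at 12 against 5 days by 2.48 ± 0.48 (adjusted p = 0.00640).

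Among other carriers, Slc2a4 (GLUT4), the insulin-responsive glucose carrier, fell by 3.84 ± 0.36 on the log2 scale at 60 against 12 days (adjusted p = 3.65e-05) and was at -3.80, -5.10 and -4.53 at 60 days, against -0.52, -0.74 and -0.66 at 12 days. Of the glycogen genes 2 rose and 4 fell at 60 against 5 days, out of 13, with 35.4% of all genes called. Gys2, glycogen synthase, rose by 2.40 ± 0.35 (adjusted p = 0.000321) and Pygl, glycogen phosphorylase, fell by 4.78 ± 0.69 on the log2 scale (adjusted p = 0.000267). In the pentose phosphate pathway 2 of 8 genes fell at 60 against 12 days (4 were called with the slide as a block), 1 rose at 12 against 5 days, and 0 were called by limma at 60 against 5 days, where 1 had an unadjusted p under 0.05 and 1 was called with the block. Of all genes 25.5%, 12.5% and 35.4% were called in these comparisons. With the block the shares were 34.4% at 60 against 12 days and 44.5% at 60 against 5 days.

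Of 24 genes that take pyruvate into the citric acid cycle, 2 rose and 0 fell at 60 against 12 days, with 25.5% of all genes called. Pc was among those that rose (pyruvate carboxylase, by 1.48 ± 0.34, adjusted p = 0.00859). Of 17 hypoxia-response genes 1 rose in the same comparison, Adm (adrenomedullin, by 1.2 ± 0.35, adjusted p = 0.0279), and 0 fell, against the same 25.5%. Of 15 regulators of glycolysis 3 rose and 3 fell at 60 against 12 days, and 7 rose and 2 fell at 60 against 5 days. Of all genes 25.5% and 35.4% were called in these comparisons. Mlxipl, a regulator that rose in both, passed the filter only through the 60-day arrays and lends the counts no weight. Myc and Mycn, transcription factors that drive glycolytic genes, were both highest at 12 days. Mycn was at -2.99, -2.97 and -3.40 at 5 days, 0.18, 0.30 and -0.12 at 12 days and -1.75, -1.93 and -2.85 at 60 days, rising by 3.24 ± 0.36 at 12 against 5 days (adjusted p = 0.000280) and falling by 2.30 ± 0.36 on the log2 scale at 60 against 12 days (adjusted p = 0.000897). Fshr, the receptor of the hormone that all cultures received, rose by 1.87 ± 0.50 at 12 against 5 days (adjusted p = 0.0339) and was 2.78 ± 0.50 higher at 60 than at 5 days (adjusted p = 0.00130).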

How the data were processed

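RNA of 9 Sertoli cell cultures was read on 9 one-colour arrays, grouped by the age given in the labels. Spot intensity was extracted and background-corrected by the authors with Agilent Feature Extraction 9.5.3.1 (slide 1) or 10.5.1.1 (slides 2 and 3), per the file headers. The authors' deposited log2 table equals log2 of that signal minus each array's 75th percentile within 0.01 for 99.6% to 99.7% of probes, by comparison with the deposited intensity. The same scaling was computed here from the intensity. Of 41012 probes 254 failed quality flags, and 26599 probes, for 22453 genes, were tested after the filter on dim probes. A gene with several probes was given by the one of highest mean. limma 3.58.1 (R 4.3.3) fitted 1 mean per age over all 9 arrays, with 6 residual degrees of freedom, and p-values were adjusted by Benjamini-Hochberg over all genes. Names came through RefSeq by accession (11103 probes), symbol (5613) or older symbol (3735), and otherwise from the files (20561).

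Same-numbered samples share a slide, per the file headers, and the correlation of their departures from the mean of each age was 0.18 to 0.60 in 9 pairs, against -0.51 to 0.09 in 18 other pairs, so a fit with the slide as a block was made beside the main one. The precision is limited by 3 arrays per age. In simulated data for 60 against 12 days on 22453 genes, 41.8% of genes changed by 2 on the log2 scale were recovered. So were 83.3% of those changed by 4 and 0% of those changed by 1, with 4 false calls. Far fewer genes were changed in the simulation than the 5718 called on the arrays in this comparison. The Benjamini-Hochberg adjustment is stricter when fewer genes change. These shares are therefore not the recovery on the arrays, which was not tested. On the arrays Ldhb was called at a difference of 0.89 in this comparison, and Pdk3 at 1.2.

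The members, the other gene lists and the marker lists were chosen with earlier results of these data known. All members are accounted for. From each other list up to 4 called genes per comparison could be named, by size of change, and from each marker list up to 3. Marker genes named as undetected, and the motifs, were picked after the values were seen. Alternatives were other scalings, background correction, filters, probe rules, fits and left-out arrays or slides. The values of 1 gene of the other lists are not reported here.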

Additional observations from a re-analysis of the deposited data

How the results depend on the processing

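Each result was recomputed under the alternatives. The deposited table, every probe taken separately (each member still read by its brightest probe) and the mean of probes changed no pairwise call among the members, while the mean of probes gave 19 members by the F-test in place of 20, and the slide as a block lost none, gained the 12 calls given above and changed no other call. Of the members' calls, 5 at 12 against 5 days, 16 at 60 against 12 days and 16 at 60 against 5 days, 0, 1 and 2 held under every alternative, and 1, 7 and 8 when normexp and spike-in scaling were set aside. Normexp on replicates 1 and 3 left 4, 2 and 182 genes called, 0, 1 and 2 members and 0, 0 and 0 genes of the other lists, with member medians of -0.0045 (60 against 12 days) and 0.10 (60 against 5 days), 2 members by the F-test and 0 for the difference between intervals. A few very bright local backgrounds on replicate 3 broke that setting, so it was repeated with backgrounds capped at their 99th percentile, a choice made after seeing the data: 823, 2331 and 3920 genes, 0 and 7 members (12 against 5 and 60 against 12 days), 6, 19 and 22 other genes, a median of 0.12 (60 against 12 days), 11 members by the F-test and 2 between intervals. Gapdhs at 60 against 12 days turned to -0.051 and, capped, to -0.077, and sign changes between values that were both uncalled were not counted. Scaling on 6 spike-in probes, picked after seeing control values, gave 3017 and 4092 genes (60 against 12 and against 5 days), 10 and 9 members, medians of -1.34, 1.49 and 0.15 and 8, 18 and 19 other genes. Its split of calls was 90 higher and 2208 lower at 12 against 5 days, 2637 and 380 at 60 against 12 days, and 1638 and 2454 at 60 against 5 days. The spike-in shift differed between slides (2.19, 0.02 and 1.76 at 12 against 5 days). Requiring all 9 arrays above background gave 1536, 3259 and 4488 genes, 2, 9 and 9 members, medians of -0.018 and -0.0048 at 60 days against 12 and 5 days, 10 members by the F-test and 2 between intervals. With that filter Pdha2 was read by its second probe. The block gave 9 members at 12 against 5 days, and quantile normalization a median of 0.80 at 60 against 5 days. The cause of these shifts was not tested. Leaving out arrays or slides gave 867 to 3098, 2812 to 5721 and 4930 to 8014 genes, 2 to 5, 8 to 15 and 11 to 19 members, medians of -0.11 to 0.13, 0.18 to 0.65 and 0.29 to 0.88, 3 to 17, 16 to 33 and 22 to 43 other genes, 10 to 19 members by the F-test and 4 to 6 between intervals. The lowest gene counts were those without replicate 2.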

Other observations

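Marker lists of further cells moved with age too. Mean levels over 6 spermatogonial markers were -1.34 to -0.93 at 5 days, 0.31 to 0.68 at 12 days and 1.5 to 1.84 at 60 days. Over 8 Leydig cell markers they were -0.76 to -0.62, -2.38 to -1.82 and -2.59 to -2.01 at these ages, and over 5 endothelial markers -1.77 to -0.79, -2.68 to -2.0 and -4.02 to -2.97. The Sertoli cell list had mean levels of -0.27 to -0.21, 1.16 to 1.38 and 2.26 to 2.86. Of the red cell markers 1 was tested, Alas2, the erythroid enzyme of haem synthesis, which rose by 5.70 at 60 against 12 days.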
